A study of Cichorium intybus with 5 samples.

Results

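Among the chicory cDNA probes that were measured after induction of somatic embryogenesis (SE) in 2 genotypes, 86 had a log2 ratio of -1 or less, that is at least 2 times less signal at d4 than at d0, in both of them. These 86 probes, of 2112 on the array and of 811 with a value in both inductions, are described here. They were chosen on the deposited log2 ratios of K59 d4 vs. K59 d0 and C15 d4 vs. C15 d0, and the rule left out 2 further probes that met the threshold, an extensin-related protein (clone E001A11) and metallothionein 1 (clone N104E6). The supplementary gene list of the study, which it presents as its significant transcriptome data, gives a function for 34 of the 86. The other 52 are absent from that list and are known here only by clone. They are thus outside the data that the study presents as significant, and why each of them is absent is not stated. Probes are PCR fragments of cDNA clones, so several of them may come from 1 gene. The paper states that the clones came from subtractive libraries, made between K59 and C15 at d4. All probes are thus a pool already selected on these genotypes, and shares over them are not shares over all chicory genes.

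K59 is an embryogenic chicory genotype (Cichorium intybus), and C15 is a non-embryogenic genotype that came from self-pollination of K59. Leaf explants were cut from plantlets grown in vitro for 2 months and were either sampled uncultured (d0) or cultured for 4 days at 35°C in darkness, with shaking, in liquid SE induction medium (d4). A further set of d4 explants of each genotype was cultured with 250 µM β-D-glucosyl Yariv reagent (β-Glc Y, Y+), a synthetic phenylglycoside that binds arabinogalactan-proteins, and was set against d4 explants without it (Y-). There were 5 comparisons, namely d4 vs. d0 (induction) in each genotype, Y+ vs. Y- in each genotype, and K59 d0 against C15 d0, and each replicate held material of 12 plants. In each comparison 2 RNA samples with different dyes were hybridized together, so that every value is the log2 of a ratio and no probe has a level of its own.

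The study states 3 biological replicates per condition, but the deposited table holds 1 value per probe and comparison. No replicate spread could therefore be computed, no difference could be set against experimental error and no test was made. Counts are of probes whose log2 ratio reached 1 or -1 and are given with the same count over all probes. This threshold is 1 part of the filter in the study's methods. The study also used a false discovery rate over its repetitions and Significance Analysis of Microarrays (SAM), and kept only smooth expression profiles. None of these filters could be applied here. Whether the 52 probes without a name passed them is not known. The study describes its gene list as also holding a SAM score for differentially expressed genes, which was not used here. The RNA came from whole explants, and fewer cells of a type and less RNA per cell cannot be told apart in it.

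A green leaf puts much of its messenger RNA into photosynthesis, above all into the small subunit of RuBisCO, the enzyme that fixes CO2, and into the proteins that bind chlorophyll. These nuclear genes are known to depend on light. When differentiated leaf cells are reactivated in culture they leave this programme, re-enter growth and, in an embryogenic genotype, divide and form somatic embryos. Growth and protein turnover in turn rest on ribosomal proteins, translation factors, chaperones that fold proteins and the ubiquitin system that marks proteins for breakdown.

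The lowest probe of both inductions was a RuBisCO probe. The RuBisCO small subunit probe (clone N104E4) stood at -5.50 in K59 and -4.37 in C15 on the log2 scale, which is 45.3 times less signal at d4 than at d0 in K59 and 20.7 times less in C15. These were the lowest values of all probes in each induction. The RuBisCO small subunit precursor (clone E007F11) stood at -4.89 in K59, the fourth lowest value there after 2 probes without a name, and at -4.02 in C15, the second lowest value. The list gives both RuBisCO clones the same closest Arabidopsis gene, so they may not be independent measurements.

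The set as a whole was spread widely below the threshold. In K59 its log2 ratios ran from -5.50 to -1.24 with a median of -3.14, and in C15 from -4.37 to -1.01 with a median of -1.60. In K59, 12 of the 86 probes lay at or below -4, 37 between -4 and -3, 29 between -3 and -2 and 8 above -2. In C15 the same bands held 2, 3, 19 and 62 probes, so that most of the set lay within 1 log2 unit of the threshold there. These values chose the set and are a description.

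The set took up most of what was repressed in C15 and a smaller share of what was repressed in K59. Over all probes with a value, 203 of 867 (23.4%) lay at or below -1 in K59 and 97 of 1169 (8.30%) in C15, and 88 of the 811 with both values (10.9%) did so in both. The 86 probes made up 88.7% of the C15 probes at or below -1 and 42.4% of those in K59. Of the 203 probes in K59, 15 had no C15 value and could not enter the set, and of the 97 in C15, 3 had no K59 value. Of the 20 lowest probes of each induction, 19 belonged to the set. The remaining 1 was in both cases E001A11 (-3.70 in K59 and -2.75 in C15), which met the threshold and was left out by the rule.

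**Figure D1:**
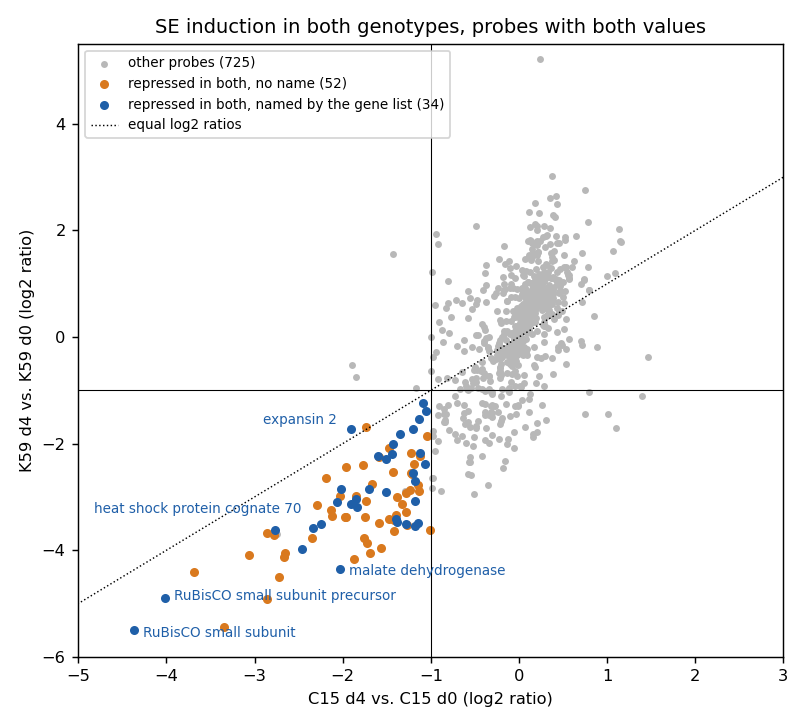
Log2 ratio of K59 d4 vs. K59 d0 (vertical axis) against C15 d4 vs. C15 d0 (horizontal axis) for the 811 probes with both values, where each point is 1 probe, solid lines mark the threshold of -1 and the dotted line marks equal ratios. The 86 repressed probes (34 named in blue, 52 without a name in orange) fill the lower left corner, 84 of them below the dotted line, and the 2 grey points in that corner are the probes that the rule left out.

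The lower edge of the set was set by C15. The probes just inside the threshold were clone N104E2, with -3.62 in K59 and -1.01 in C15, clone E002A8 with -1.86 and -1.04, a poly(A)-binding protein (E006G5) with -1.39 and -1.06, ARF1 (E011E1) with -2.39 and -1.07 and a protein kinase C receptor (E002A1) with -1.24 and -1.09, in the same order of genotypes. Just outside it lay a chlorophyll a/b-binding protein (E008F9), with -2.83 in K59 and -0.99 in C15, and clone E010C6 with -2.65 and -0.99. Clones A025E3 and N104A12 and phenylalanine ammonia-lyase (PAL, E003G7), the entry enzyme of phenylpropanoid synthesis, followed at -0.98, -0.97 and -0.98 in C15, with -2.64, -1.85 and -1.77 in K59. Values on the 2 sides of the threshold differed by a few hundredths of a log2 unit, and the chlorophyll a/b-binding protein stands with the photosynthesis probes in all but that.

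The named probes of the set are grouped below into 11 roles, with the other listed clones placed in the same role. The roles were chosen here from the functions that the gene list gives, and not every clone of the list was placed in one. Counts per role therefore rest on this grouping. The gene list was chosen by the study on these same samples, 46 of its genes for regulation common to both genotypes, so its counts are not independent evidence of a direction. For each role the counts stand against shares over all probes of 23.4% at or below -1 and 17.3% at or above 1 in K59, and of 8.30% at or below -1 and 1.54% at or above 1 in C15. Of these 46 genes, 33 were in the set and E001A11 was left out by the rule. Of the remaining 12, 9 passed the threshold in K59 only, 1 in C15 only and 2 in neither. The 34th named probe of the set, translation initiation factor B04 (E014G12), comes from another part of the list.

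Photosynthesis gave 4 probes of the set. All 6 clones of this role, markers of green leaf tissue, had a value in both inductions, although a ratio cannot show how abundant they were. Of the 6, 5 lay at or below -1 in K59 and 4 in C15, and none at or above 1. Beside both RuBisCO probes, the set held photosystem I chain II (E008D3), a subunit on the side of photosystem I where electrons leave, with -3.58 in K59 and -2.34 in C15. It also held the precursor of CP12 (E003D4), a small chloroplast protein that switches Calvin cycle enzymes off in the dark, with -2.91 in K59 and -1.51 in C15. The remaining clone, a PSI reaction center subunit (E008D9), had -0.97 in K59 and -0.34 in C15.

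Of the clones for carbon and energy metabolism, the set held malate dehydrogenase (N101C1) alone. Its probe had a log2 ratio of -4.35 in K59, the seventh lowest of all probes, and -2.03 in C15. Of the 12 clones of this role, 2 lay at or below -1 in K59 and 7 at or above 1, and in C15 2 lay at or below -1 and 1 at or above 1. A second clone that the list calls malate dehydrogenase (E006E2) had 1.09 in K59 and 0.26 in C15, so clones of that name stood on opposite sides of 0. Malate dehydrogenase interconverts malate and oxaloacetate, but the closest Arabidopsis gene that the list gives for both clones is an NADP-malic enzyme, which turns malate into pyruvate. The list repeats that gene for 2 clones of other functions, TCTP among them, so what N101C1 encodes is uncertain. The sucrose transport protein SUT1 (E001F2), which loads sucrose for export from leaves, had -0.75 in K59 and -1.85 in C15, and missed the set in K59.

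Of the clones listed for signalling and membrane channels, 4 were in the set. Both MIP family proteins, members of the aquaporin family of membrane channels, were in the set, E001G4 with -3.98 in K59 and -2.46 in C15, and E014D12 with -3.14 in K59 and -1.91 in C15. Calmodulin (E004F10), the small protein that reads calcium signals, had -3.08 in K59 and -1.18 in C15. The protein kinase C receptor (E002A1) had the highest K59 value of the set, -1.24, and -1.09 in C15. Of the 13 clones listed for signalling and membrane channels, 6 lay at or below -1 and 6 at or above 1 in K59, so this role was divided.

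The chaperones of the HSP70 family were all repressed. Heat shock protein cognate 70 (E016H11) had -3.62 in K59 and -2.77 in C15, a dnaK-type chaperone (E004A3) had -3.03 in K59 and -1.85 in C15, and heat shock protein 70 (E012D5) had -2.23 in K59 and -1.60 in C15. HSP70 proteins bind unfolded stretches of other proteins. The list gives E016H11 and E012D5 the same closest Arabidopsis gene. The other 2 chaperone clones belong to the chaperonin family, which folds proteins inside a closed chamber, and lay at or above 1 in K59, E007B3 with 1.28 in K59 and 0.47 in C15 and E017B4 with 1.45 in K59 and 0.14 in C15.

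Ubiquitin and the enzymes that carry it were repressed in both genotypes, whereas no other listed clone of the pathway was at or below -1 in both. The 2 polyubiquitin probes had -2.85 in K59 and -1.70 in C15 (N102D1), and -2.20 in K59 and -1.44 in C15 (E017D10). The ubiquitin-conjugating enzymes, which hand ubiquitin on to its targets, had -3.48 in K59 and -1.15 in C15 (E2, E010G5), and -3.42 in K59 and -1.40 in C15 (UBC9, E015H1). Among all 13 clones of the ubiquitin and proteasome list, 6 lay at or below -1 and 4 at or above 1 in K59, against 4 and 1 in C15. None of the listed proteasome subunits was in the set. Outside the set, 2 clones of this list also lay at or below -1 in K59. An E3 ubiquitin ligase (N104F8) had -1.44 in K59 and 1.01 in C15. A RING zinc finger protein (E012B12) had -1.30 in K59 and -0.29 in C15.

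**Figure D2:**
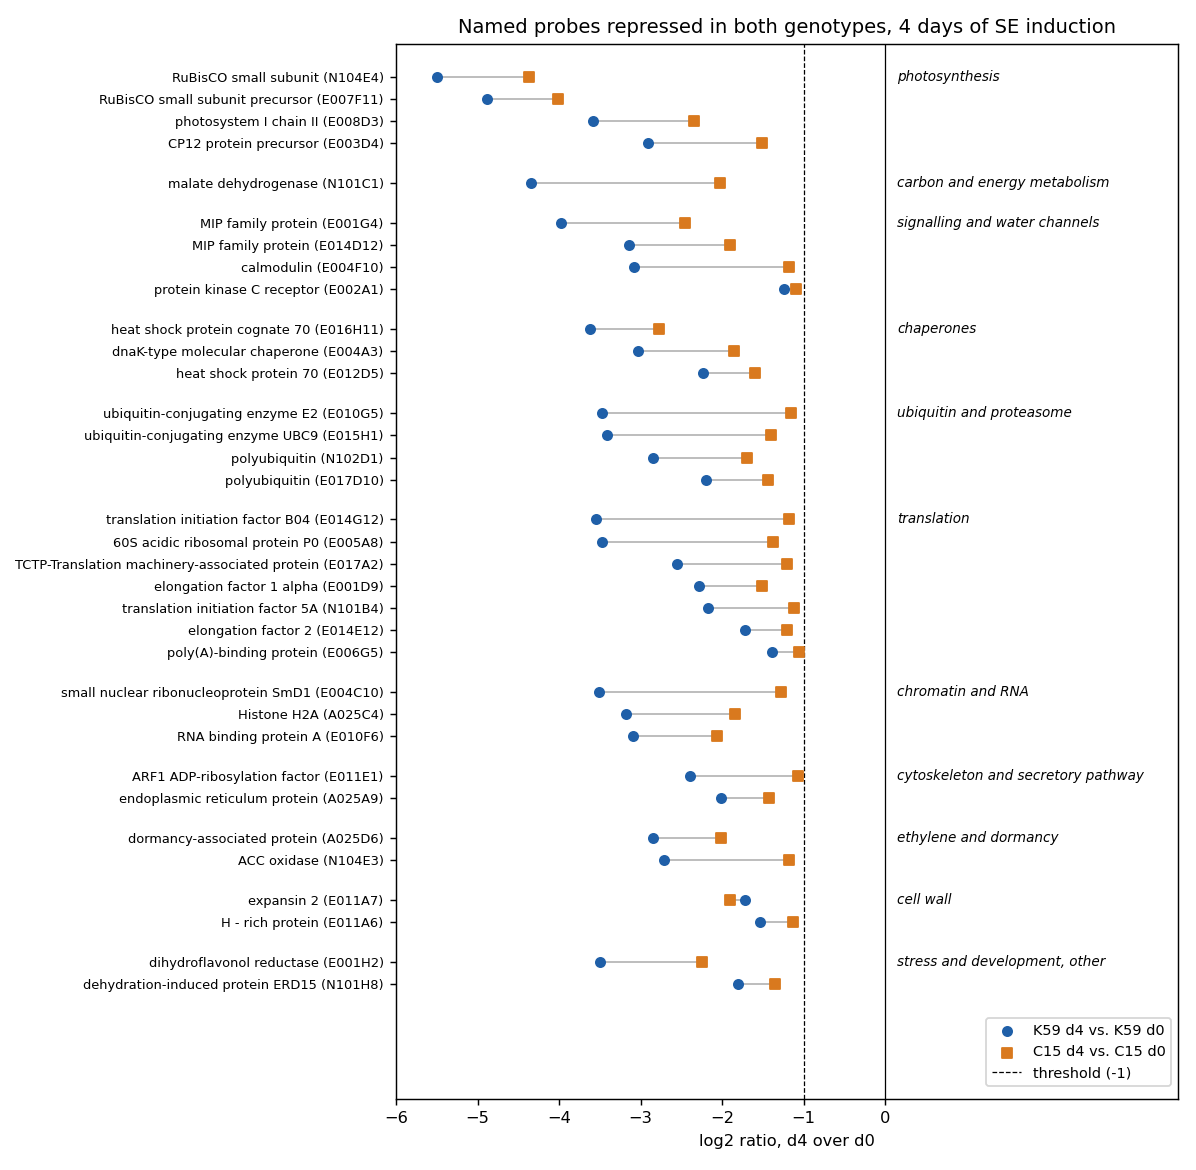
Log2 ratios of d4 over d0 for the 34 named probes of the set, 1 row per probe grouped by role, with K59 as blue circles, C15 as orange squares and the threshold of -1 as a dashed line. RuBisCO small subunit lies furthest left at -5.50 in K59 and -4.37 in C15, and expansin 2 is the only row in which C15 (-1.91) lies left of K59 (-1.72).

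Translation was the role with the most probes in the set, 7. They were translation initiation factor B04 (-3.55 in K59 and -1.18 in C15), the 60S acidic ribosomal protein P0 of the ribosomal stalk (E005A8, -3.47 and -1.38), TCTP (E017A2, -2.56 and -1.20), elongation factor 1 alpha (E001D9, -2.29 and -1.51), translation initiation factor 5A (N101B4, -2.17 and -1.12), elongation factor 2 (E014E12, -1.72 and -1.20) and the poly(A)-binding protein (E006G5, -1.39 and -1.06). Elongation factor 1 alpha brings aminoacyl-tRNA to the ribosome, and elongation factor 2 moves the ribosome along. In K59 14 of the 15 translation clones lay at or below -1, beside 203 of 867 over all probes, and in C15 these 7 did, beside 97 of 1169. Most of the ribosomal proteins passed the threshold in K59 only, among them the S29-like protein (N103G2), with -2.57 in K59 and -0.58 in C15.

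Of the nuclear and RNA-binding proteins, 3 of the 7 listed clones were in the set. SmD1 (E004C10), a core protein of the spliceosome, had -3.51 in K59 and -1.28 in C15, histone H2A (A025C4) had -3.18 in K59 and -1.84 in C15, and RNA binding protein A (E010F6) had -3.09 in K59 and -2.06 in C15. Of the other 4 clones, a histone acetyltransferase (E013B9) and an RNA helicase (N102G9) lay at or above 1 in K59, the helicase at 1.37.

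The other named probes came from several roles. ACC oxidase (N104E3), which makes ethylene in the last step of its synthesis, had -2.71 in K59 and -1.18 in C15, and a dormancy-associated protein (A025D6) had -2.85 in K59 and -2.02 in C15. S-adenosylmethionine synthetase (E008B1), which makes a precursor of ethylene, stayed just outside with -1.95 in K59 and -0.92 in C15. Dihydroflavonol reductase (E001H2), an enzyme of anthocyanin synthesis, had -3.50 in K59 and -2.25 in C15. The dehydration-induced protein ERD15 (N101H8) had -1.81 in K59 and -1.35 in C15.

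In the secretory pathway the set held ARF1 (E011E1), a small GTPase of Golgi vesicles, and an endoplasmic reticulum protein (A025A9), with -2.01 in K59 and -1.43 in C15. The cytoskeletal proteins profilin (E008B12) and beta tubulin (E011C12) passed the threshold in K59 only, with -1.94 and -1.51, against -0.70 and -0.64 in C15. Of the 15 cell wall clones, the set held expansin 2 (E011A7), which loosens cell walls, with -1.72 in K59 and -1.91 in C15, and an H-rich protein (E011A6) with -1.53 in K59 and -1.13 in C15. The cell wall clones were divided in K59, where 6 lay at or below -1 and 5 at or above 1.

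Some of the lowest probes of the set have no name in the gene list. Clone E010G3 had -5.45 in K59, second only to the RuBisCO small subunit, and -3.35 in C15. Clone N103E10 had -4.40 in K59 and -3.69 in C15, the third lowest value of that genotype. Below -4 in K59 there were also N104F5 (-4.92, with -2.86 in C15), E009E7 (-4.50, with -2.72), E005F10 (-4.16, with -1.87), N102G4 (-4.12, with -2.67), E014A4 (-4.09, with -3.06), E006A9 (-4.06, with -1.69) and E014B1 (-4.05, with -2.65). The 52 probes without a name lay lower than the named ones, with medians in K59 of -3.31 and -2.97 and in C15 of -1.71 and -1.475, in this order. What these clones encode cannot be said here, and repeats of the named genes may be among them.

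Repression was deeper in K59 than in C15 for nearly the whole set as the values were deposited, though not once they were scaled to the spread of each genotype. These are the values that chose the set, and those of K59 were the wider ones, so the counts are a description. The log2 ratio was lower in K59 for 84 of the 86 probes, beside 353 of the 811 probes with both values (43.5%), and the median of K59 minus C15 was -1.33, beside 0.14 over the 811. The exceptions were expansin 2, with a difference of 0.19, and clone E002A4, with 0.04 (-1.69 in K59 and -1.73 in C15). The widest differences were those of clones N104E2 (-2.61), A025D2 (-2.39) and E006A9 (-2.37), of translation initiation factor B04 (-2.37) and of the ubiquitin-conjugating enzyme E2 (-2.33). Across the set the values of the genotypes correlated with r = 0.70 (Spearman 0.59, 86 probes), a description of probes that share their slides and were cut at the same threshold.

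This order of the genotypes depended on the scale. The K59 values were wider over all probes, with a scaled median absolute deviation of 1.16, against 0.30 in C15. When the values of each genotype were divided by that spread, none of the 86 probes was lower in K59, and the median difference turned to 2.99. With the spread taken over the 811 shared probes, 1.13 in K59 and 0.39 in C15, 3 of the 86 were lower in K59 and the median difference was 1.74. Without replicates it could not be tested which scale fits. On the deposited scale the median difference of the roles with 3 or more probes in the set was -1.59 for ubiquitin, -1.38 for signalling and channels, -1.34 for nuclear and RNA-binding proteins, -1.19 for photosynthesis, -1.05 for translation and -0.85 for the chaperones. These medians rest on 3 to 7 probes each, and no difference between roles was tested.

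**Figure D3:**
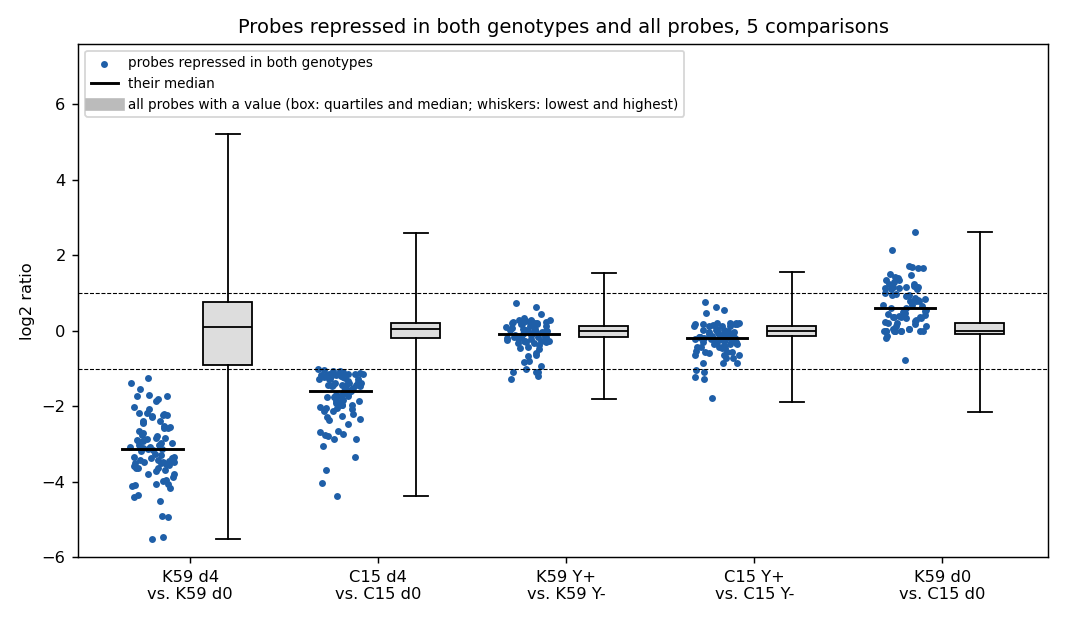
Log2 ratios of the set (blue points, 1 per probe, with a line at the median) and of all probes with a value (grey boxes of median and quartiles, whiskers to the lowest and highest value) in the 5 comparisons, with dashed lines at 1 and -1. The medians of the set are -3.14 and -1.60 after induction in K59 and C15, -0.08 and -0.20 with β-Glc Y, and 0.60 at d0.

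Few of these probes reached the threshold with β-Glc Y. In K59, 74 of the 86 had a Y+ vs. Y- value, with a median of -0.08 and a range from -1.27 to 0.74, and in C15 83 had one, with a median of -0.20 and a range from -1.78 to 0.77. The median over all probes was 0 in both genotypes. At or below -1 lay 6 of the 74 in K59 (8.11%), beside 2.00% of all probes, and 5 of the 83 in C15 (6.02%), beside 3.81%. Over the other probes with both induction values the shares were 18 of 673 in K59 (2.67%) and 41 of 704 in C15 (5.82%). The C15 share of the set was thus close to that of these probes. No probe of the set reached 1 in either genotype, beside 0.583% of all probes in K59 and 1.03% in C15. The other probes that were repressed in K59 and had a C15 value gave 7 of 88 at or below -1 in K59 (7.95%) and 7 of 95 in C15 (7.37%), close to the shares of the set. Both groups of other probes were formed with the 2 probes that the rule left out. Of these, E001A11 (-1.08 in K59 and -1.21 in C15) is among the 7 in each genotype. The Y- explants are also d4 explants, as in the induction comparisons, and whether the same extracts were used is not stated.

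Most of the set stayed near 0 with β-Glc Y, on the negative side in C15. Values below 0 were found for 43 of 74 probes in K59 (58.1%), beside 49.5% of all probes, and for 60 of 83 in C15 (72.3%), beside 48.0%. Of the 73 probes with both values, 50 lay within 0.5 of 0 in both genotypes (68.5%), beside 86.0% of the 1044 probes with both values. The sign of the K59 median was not stable, since it was 0.055 over the 28 named probes with a value and -0.16 over the 46 without a name. In C15 the medians were -0.16 over the 34 named probes and -0.22 over the 49 others.

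The RuBisCO and other photosynthesis probes lay near 0 with β-Glc Y. The RuBisCO small subunit had -0.26 in K59 and -0.20 in C15, its precursor 0.27 and -0.11, photosystem I chain II 0.19 and 0.17 and CP12 -0.07 and 0.48. The 7 translation probes stayed between -0.47 and 0.29 in K59 and between -0.84 and 0.20 in C15. The lowest C15 value was that of translation initiation factor B04, which had no K59 value. Of the named probes, UBC9 alone passed the threshold, with -1.10 in K59 and -0.84 in C15. The highest named values were those of ERD15 in K59 (0.74, with 0.19 in C15) and calmodulin in C15 (0.62, with 0.10 in K59).

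The other probes of the set at or below -1 with β-Glc Y have no name. Clones N104F5 (-1.09 in K59 and -1.78 in C15), E015F11 (-1.09 and -1.27) and E017G1 (-1.01 and -1.03) passed the threshold in both genotypes, 3 of the 73 with both values, beside 1.72% of all probes. N104F5 had the second lowest C15 value of all probes and was also the third lowest in K59 induction. Clones E014E10 (-1.27 and -0.72) and E001D1 (-1.20 and -0.72) passed it in K59 only, and E002A4 (-0.81 and -1.21) and E005A4 (-0.92 and -1.08) in C15 only. At or below -0.75 in both genotypes lay 54 of the 1044 probes (5.17%), and 7 of these belonged to the set (9.59% of its 73 probes with both values), namely N104F5, E015F11, E017G1, E002A4, E005A4, UBC9 and E012B10 (-0.83 and -0.85).

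**Figure D4:**
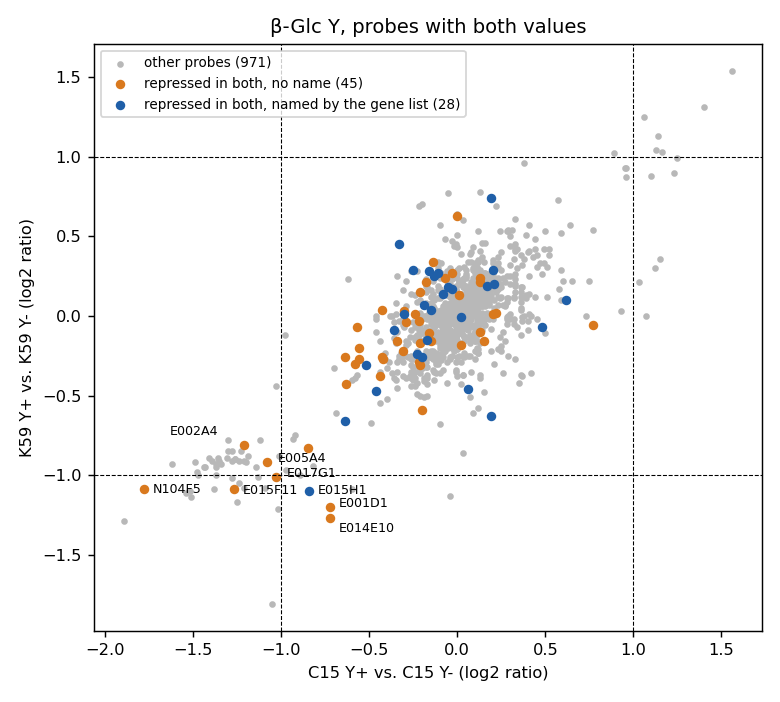
Log2 ratio of K59 Y+ vs. K59 Y- (vertical axis) against C15 Y+ vs. C15 Y- (horizontal axis) for the 1044 probes with both values, with the set in blue (28 named) and orange (45 without a name), other probes in grey and dashed lines at 1 and -1. Of the set, 50 of 73 probes lie within 0.5 of 0 on both axes, and the 8 at or below -1 on at least 1 axis are marked with their clone.

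Before culture, the probes of the set mostly lay on 1 side of 0 in the comparison of K59 d0 with C15 d0, above it as labelled. The direction of this comparison is not settled, and with the sign turned every value and count above 0 given for it would stand below 0, highest values would be lowest ones, and shares would be those of probes at or below -1 or below 0. A value was present for 79 of the 86, with a median of 0.60 and a range from -0.76 to 2.62, beside a median of 0 over the 492 probes with a value. At or above 1 lay 26 of the 79 (32.9%), beside 33 of 492 (6.71%), and none lay at or below -1, beside 1.42%. Values above 0 were listed for 66 of the 79 (83.5%), beside 47.6% of all probes. The 26 made up 78.8% of all probes at or above 1 at d0. For comparison, the other probes repressed in K59, again formed with those that the rule left out, had a d0 value in 57 cases. Their median was 0.21, and 7 lay at or above 1 (12.3%). The paper reports no significant differences between the d0 profiles of K59 and C15, and refers to its gene list for this. It rests its comparison of the genotypes on that statement. The counts here apply a threshold without a test and cannot decide whether the statement holds for probes outside the list.

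The direction of the d0 ratios is that of the sample labels, which place K59 in the first channel. Set against induction over all probes with both values, the d0 log2 ratios ran the opposite way, with r = -0.54 in K59 (486 probes) and -0.52 in C15 (491 probes). With the sign turned, the 26 probes would be lower in K59 and the median would be -0.60. The d0 RNA of each genotype is the denominator of its induction ratio. The d0 and induction ratios therefore share d0 samples. The part of these samples in the correlations and in the values of the set was not tested.

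The d0 values divided the set by whether the gene list names the probe. All 26 probes at or above 1 were among the 45 without a name that had a value (57.8%), where the median was 1.13. The 34 named probes lay between 0 and 0.60 with a median of 0.22, and 9 of them were listed at exactly 0.00. Exact zeros were also listed for 34 of the 96 other probes of the gene list, but for 9 of the 311 outside it and for none of the set without a name, and whether they are measured values is not stated. Without them the median was 0.33 over the named probes of the set and 0.165 over the 62 others of the list. Outside the set the order of the medians was turned, with 0 over the 96 other probes of the list and -0.03 over the 311 not in it. None of the 96 other probes of the gene list with both induction values reached 1 or -1, while 7 of the 311 others not in the list lay at or above 1 and 7 at or below -1. Thus no named probe of the set and none of these 96 reached the threshold at d0. Whether the list was also chosen on d0 values is not stated and was not tested. The division by name is therefore a description and not an independent result. The RuBisCO small subunit had 0.36 and its precursor 0.28, and the highest named values were those of TCTP and translation initiation factor 5A, both 0.60.

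In the labelled direction, the highest d0 value of all probes was that of clone E005A4 in the set, with 2.62, which would be the lowest with the sign turned. It was followed in the set by E014E10 (2.15), E002A4 (1.72), E017G1 (1.68), E017F12 (1.67), E012E8 (1.67) and E014A4 (1.51). The 4 probes of the set below 0 were E007F5 (-0.76), N102A1 (-0.19), E014F8 (-0.14) and E002A8 (-0.01). Of the unnamed probes lowest in K59 induction, E010G3 had 0.84, N104F5 1.24, E009E7 1.48 and N103E10 1.42, all above the highest named value.

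**Figure D5:**
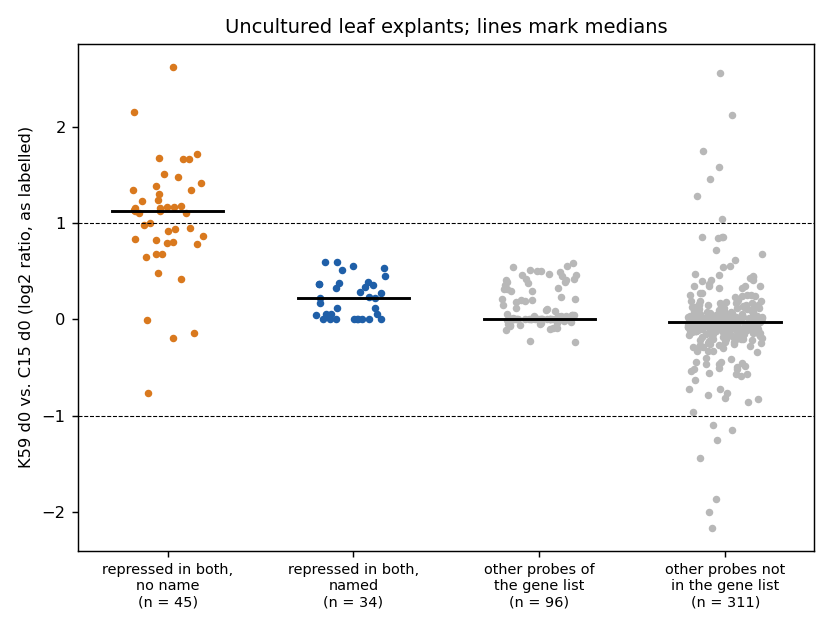
Log2 ratio of K59 d0 vs. C15 d0, in the labelled direction, for probes of the set without a name (n = 45) and with one (n = 34), and for other probes with both induction values in the gene list (n = 96) and outside it (n = 311), where points are probes, lines are medians and dashed lines mark 1 and -1. The probes without a name have a median of 1.13 and the named ones of 0.22, with none of the named above 0.60.

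The probes of the set more often had all 5 values than others and were spread unevenly over the clone plates. All 5 values were present for 69 of the 86 (80.2%), beside 54.9% of the other 725 probes with both induction values. The d0 comparison made this difference, with a value for 79 of the 86, beside 407 of the 725. With β-Glc Y the set was not more complete. In K59 74 of the 86 had a value, beside 673 of the 725, and in C15 83, beside 704. Clones whose names start with N gave 21 of the 97 probes with both values (21.6%), those of plate A025 5 of 22 (22.7%) and those starting with E 60 of 692 (8.67%). By plate the share was highest in N104 (9 of 27, 33.3%) and E014 (9 of 33, 27.3%) and lowest in E008 (1 of 54, 1.85%). What the letters stand for is not given in the sources used here. The plates also differed as a whole, with a median K59 induction log2 ratio of -1.41 over N104 and -1.24 over E014, against 0.37 over E008, and their part in the set was not tested.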

How the data were processed

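Each deposited value is a log2 ratio. The authors read intensities in GenePix Pro 6.0. Their preparation had 3 steps that bear on the ratios, a filter on spot quality and brightness, a within-slide normalization (lowess, with a correction per print tip) after background subtraction, and a filter on probes whose dye-swapped slides disagreed in sign. A lowess centres each slide on its bulk, so that a shift shared by most probes would be lost, and the filters leave probes without a value. How 6 hybridizations became 1 value is not stated, and the description excepts d0 from that number. Scale and direction of the induction columns were checked against the column headings of the supplementary gene list, from which no values were used, and all 135 of its clones matched a probe. Spot intensities and single hybridizations were not analysed here.

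The set and the role lists were chosen with earlier results of these data known. Probes at or beyond 1 or -1 were counted and medians taken, with no test and no imputation. Named are the 34 probes with a function, the lowest unnamed probes of each induction, those past the threshold in another comparison, the widest and narrowest genotype differences, and the 5 probes on each side of the threshold. Clones of the 11 role lists are named outside the set. Alternatives were other thresholds, median centring, scaling by spread, subsets of probes and the turned d0 sign. The counting was tested on simulated data. Python 3.11.15, pandas 2.3.3, numpy 2.4.6, scipy 1.17.1 and matplotlib 3.10.9 were used.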

Additional observations from a re-analysis of the deposited data

How the results depend on the processing

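The set numbered 93 probes at a threshold of -0.95 and 93 after subtracting the median of each comparison, 48 at -1.5, 69 with all 5 values, 88 with both left-out probes and 34 within the gene list. Lower in K59 than in C15 were 84 of 86 after median centring, with a median difference of -1.37, and 46 of 48 at -1.5, with -1.21. Dividing by the spread over all probes reversed the order (0 probes lower in K59, median difference 2.99), as did the spread over shared probes (3 probes, 1.74), because the K59 spread is wider. With β-Glc Y, 12 probes in K59 and 18 in C15 lay at or below -0.5, and 8 in C15 at or below -0.75. At or above 0.5 lay 2 in K59 and 3 in C15, and 1 in C15 at or above 0.75. The median was 0.055 over named probes and -0.16 over the others in K59, and -0.16 and -0.22 in C15. At d0, 7 probes lay at or above 1.5 and 1 at or below -0.75. Leaving out values of exactly 0 gave a median of 0.79. Named probes alone gave 0.22, or 0.33 without exact 0, and the others 1.13, splits added after seeing the data. Turning the sign gave -0.60, with 0 probes at or above 1 and 26 at or below -1. No paired analysis was possible because each comparison has 1 value per probe, and no replicate could be left out. Depth and signal over background are unknown here.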

Other observations

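The 8 probes of the set at or below -1 with β-Glc Y in at least 1 genotype had a higher median d0 log2 ratio than the others, in the labelled direction. The β-Glc Y and d0 comparisons have no explants in common. They are still not independent in the set, which was chosen on ratios of d4 explants to d0 explants. The d0 values of the 8 ran from 0.53 (UBC9) to 2.62, with a median of 1.46. Over the other 71 probes of the set with a d0 value they ran from -0.76 to 1.67, with a median of 0.51. All of the 8 but UBC9 have no name, and unnamed probes of the set had a d0 median of 1.13, beside 0.22 over named ones. The part of that division in this difference was not tested. Of the 7 probes of the set at or above 1.5 at d0, 4 (E005A4, E014E10, E002A4 and E017G1) were among the 8. Over all probes with a d0 value and a β-Glc Y value, 8 of the 31 at or above 1 at d0 lay at or below -1 with β-Glc Y (25.8%), beside 49 of all 489. Of the 7 such probes outside the set, 2 did so. The choice of these probes followed their values, the d0 direction is not settled, and no test was made. With the sign turned, the d0 median of the 8 would be the lower one, and the 31 probes would be those at or below -1.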
